A study of Mus musculus with 5 samples.

Results

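The autophagy genes examined here are the 35 gene symbols, of 27678 in the deposited table, that begin with Atg and a digit or encode a further named core factor of autophagosome formation or a cargo receptor (pseudogene-type names ending in -ps were left out, here 1, Atg4a-ps). They were chosen by a rule on names, with earlier results of these data known. All 35 were compared between 3 Etv3-/- and 2 Etv3+/+ RNA-seq libraries of mouse dendritic cells. Dendritic cells are antigen-presenting cells, and Etv3 is a gene of an ETS-family transcription factor. Marrow of Etv3-/- mice, and of Etv3+/+ mice as the control, was grown for 6 days in medium containing GM-CSF at 20 ng/ml with IL-4 at 5 ng/ml, and live CD11c+ CD11b-intermediate MHC-II-high CD115- cells were sorted. The labels used here name the genotype alone, without the disrupted part of the locus or the age of the mice. Whether each replicate is another animal or culture is not in the labels, so a p-value measures the spread between these libraries, which may be technical.

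Autophagy delivers cytoplasm, organelles and microbes to the lysosome inside a double-membraned vesicle, the autophagosome. A kinase complex around ULK1 starts the process, a lipid kinase complex around Beclin 1 marks the membrane, and ATG9 vesicles and ATG2 bring lipid to it. A pair of ubiquitin-like conjugation systems then attaches LC3 and GABARAP proteins to the membrane, where cargo receptors such as p62 dock. In dendritic cells the pathway and parts of its machinery are known to feed antigen to MHC class II compartments and to take part in phagosome maturation. Transcript levels do not measure how much material passes through the pathway.

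No autophagy gene differed between the genotypes past the threshold. Of the 35 members, 0 rose and 0 fell (limma on log2 of the normalized count + 1, Benjamini-Hochberg adjusted p under 0.05 over all 13813 tested genes), where 1.19% of all tested genes were called, 0.876% upward and 0.319% downward. The lowest adjusted p among the members was 0.241, for Atg13. At an unadjusted p under 0.05 there were 5 members, or 14.3%, against 18.0% of all tested genes: Atg13 was higher in Etv3-/- cells, and Rb1cc1, Atg4a, Map1lc3b and Atg5 were lower. On the recovered reads, edgeR called 0 of 35, with 2 at an unadjusted p under 0.05, and DESeq2 called 0 of 35, with 6, while these tools called 1.14% and 8.6% of all tested genes. All 35 members passed the filter of 10 or more normalized counts in at least 2 libraries.

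The differences among the autophagy genes were small beside those of all genes. Their log2 fold changes, Etv3-/- over Etv3+/+, had a median of -0.07, against -0.06 over all tested genes. Of the members 14 were above 0 and 21 below, and of all tested genes 6394 were above and 7419 below. The median absolute log2 fold change was 0.26 for the members and 0.48 for all tested genes. It was 0.36 for the 8255 other tested genes whose mean level lay within that of the middle 90% of members. The 95% interval lay within 2-fold in either direction for 21 of 35 members, or 60.0%, against 28.9% of all tested genes and 46.1% of those at a like level. For the other 14 members a 2-fold difference in at least 1 direction lay inside the interval, so a missed threshold does not show that their levels are alike. Values of the genotypes did not overlap for 9 of 35 members, or 25.7%, against 36.0% of all tested genes. In 4 of these 9 the Etv3-/- values were the higher (16.7% of all tested genes) and in 5 the lower (19.3%). The 2 Etv3+/+ libraries differed from each other by more than the genotypes did for 22 of 35 members, or 62.9%, against 53.2% of all tested genes.

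**Figure D1:**
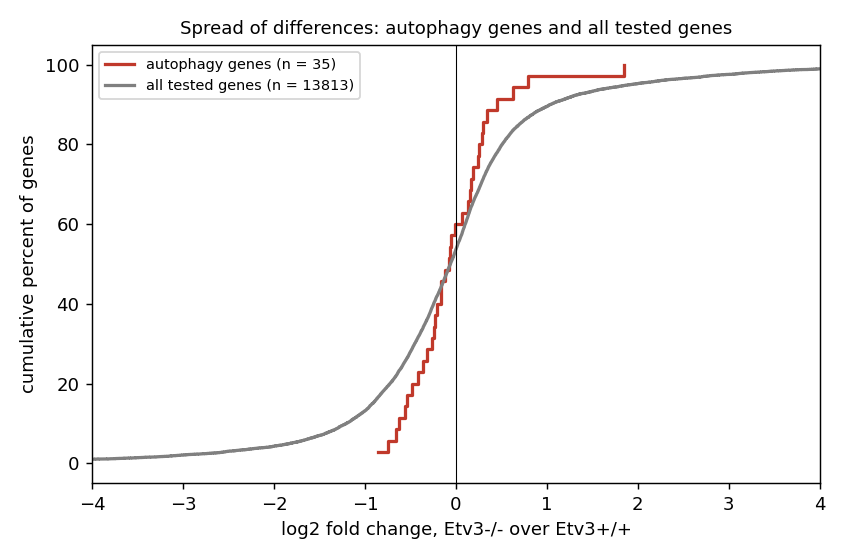
Cumulative percent of genes (vertical axis) at or below each log2 fold change, Etv3-/- over Etv3+/+ (horizontal axis, drawn from -4 to 4), for the 35 autophagy genes (red) and all 13813 tested genes (grey). The red curve is steeper around 0: the median absolute log2 fold change was 0.26 for autophagy genes and 0.48 for all tested genes.

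Several facts of the libraries bear on these values. Recovered depth was 42983550 to 59694413 reads in Etv3-/- libraries and 56445754 and 68253936 reads in Etv3+/+ libraries. Etv3 itself had 18691, 20416 and 22856 normalized counts in Etv3-/- libraries and 23050 and 25447 in Etv3+/+ libraries (log2 fold change -0.23, limma adjusted p = 0.567). Such a total is no check of the knockout without the disrupted part of the locus, so genotypes are as labelled. All 10 dendritic cell markers were detected, with summed levels of 2365534 to 3184001 normalized counts in Etv3-/- and 1159311 to 1586228 in Etv3+/+ libraries. Csf1r, which encodes the CD115 excluded in the sort, was at 2403 to 3493 normalized counts in Etv3-/- and 1018 to 1348 in Etv3+/+ libraries. Of the macrophage and monocyte markers 15 of 16 were detected, with Marco at 0, and their sum was 25826 to 33557 in Etv3-/- against 14490 to 15157 in Etv3+/+ libraries. B cell markers (10 of 10 detected) summed to 4321 to 6382 normalized counts in Etv3-/- and 2106 to 2382 in Etv3+/+ libraries. T and NK cell markers (11 of 12 detected, Ncr1 at 0) summed to 3974 to 6666 in Etv3-/- and 8017 to 8114 in Etv3+/+ libraries. A sum follows its most abundant markers, and the markers of a list did not all go the same way. Log2 fold changes lay above 0 for 9 and below for 1 of the dendritic cell markers. The same counts were 11 and 4 for tested macrophage and monocyte markers and 8 and 2 for B cell markers. They were 4 and 7 for T and NK cell markers and 2 and 10 for neutrophil markers. Past the threshold, 1 of 10 dendritic cell markers and 3 of 15 tested macrophage and monocyte markers rose and 0 fell, against 0.876% and 0.319% of all tested genes. Of the B cell, T and NK cell, neutrophil, and basophil and mast cell markers 0 passed. Sums of neutrophil markers (12 of 12, 15628 to 77048 in Etv3-/- and 53682 to 56592 in Etv3+/+) and of basophil and mast cell markers (8 of 8, 11863 to 17767 in Etv3-/- and 11155 to 19073 in Etv3+/+) overlapped. The part of these cells in any difference below was not tested, and in bulk samples fewer cells of a type and less RNA per cell cannot be told apart.

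Levels spanned a wide range when set per length of the principal transcript in GENCODE. Sqstm1, the transcript of the cargo receptor p62, led with 29638 normalized counts per kilobase in Etv3-/- and 35071 in Etv3+/+ cells (group means). Gabarap followed with 21108 and 18781 per kilobase in Etv3-/- and Etv3+/+ cells, and Map1lc3b, the LC3B transcript, with 6401 in Etv3-/- and 9020 in Etv3+/+ cells. Next on the same per-length scale came Uvrag, with 4338 in Etv3-/- and 4960 in Etv3+/+ cells. At the other end Atg9b was at 12.3 normalized counts per kilobase in Etv3-/- and 4.50 in Etv3+/+ cells. Its recovered reads were 19, 61 and 55 in Etv3-/- and 34 and 4 in Etv3+/+ libraries, so its wide interval (log2 fold change 1.85, interval -1.02 to 4.71) rests on few reads. Transcript length depends on the isoform taken, so neighbours in this order are only approximately placed.

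**Figure D2:**
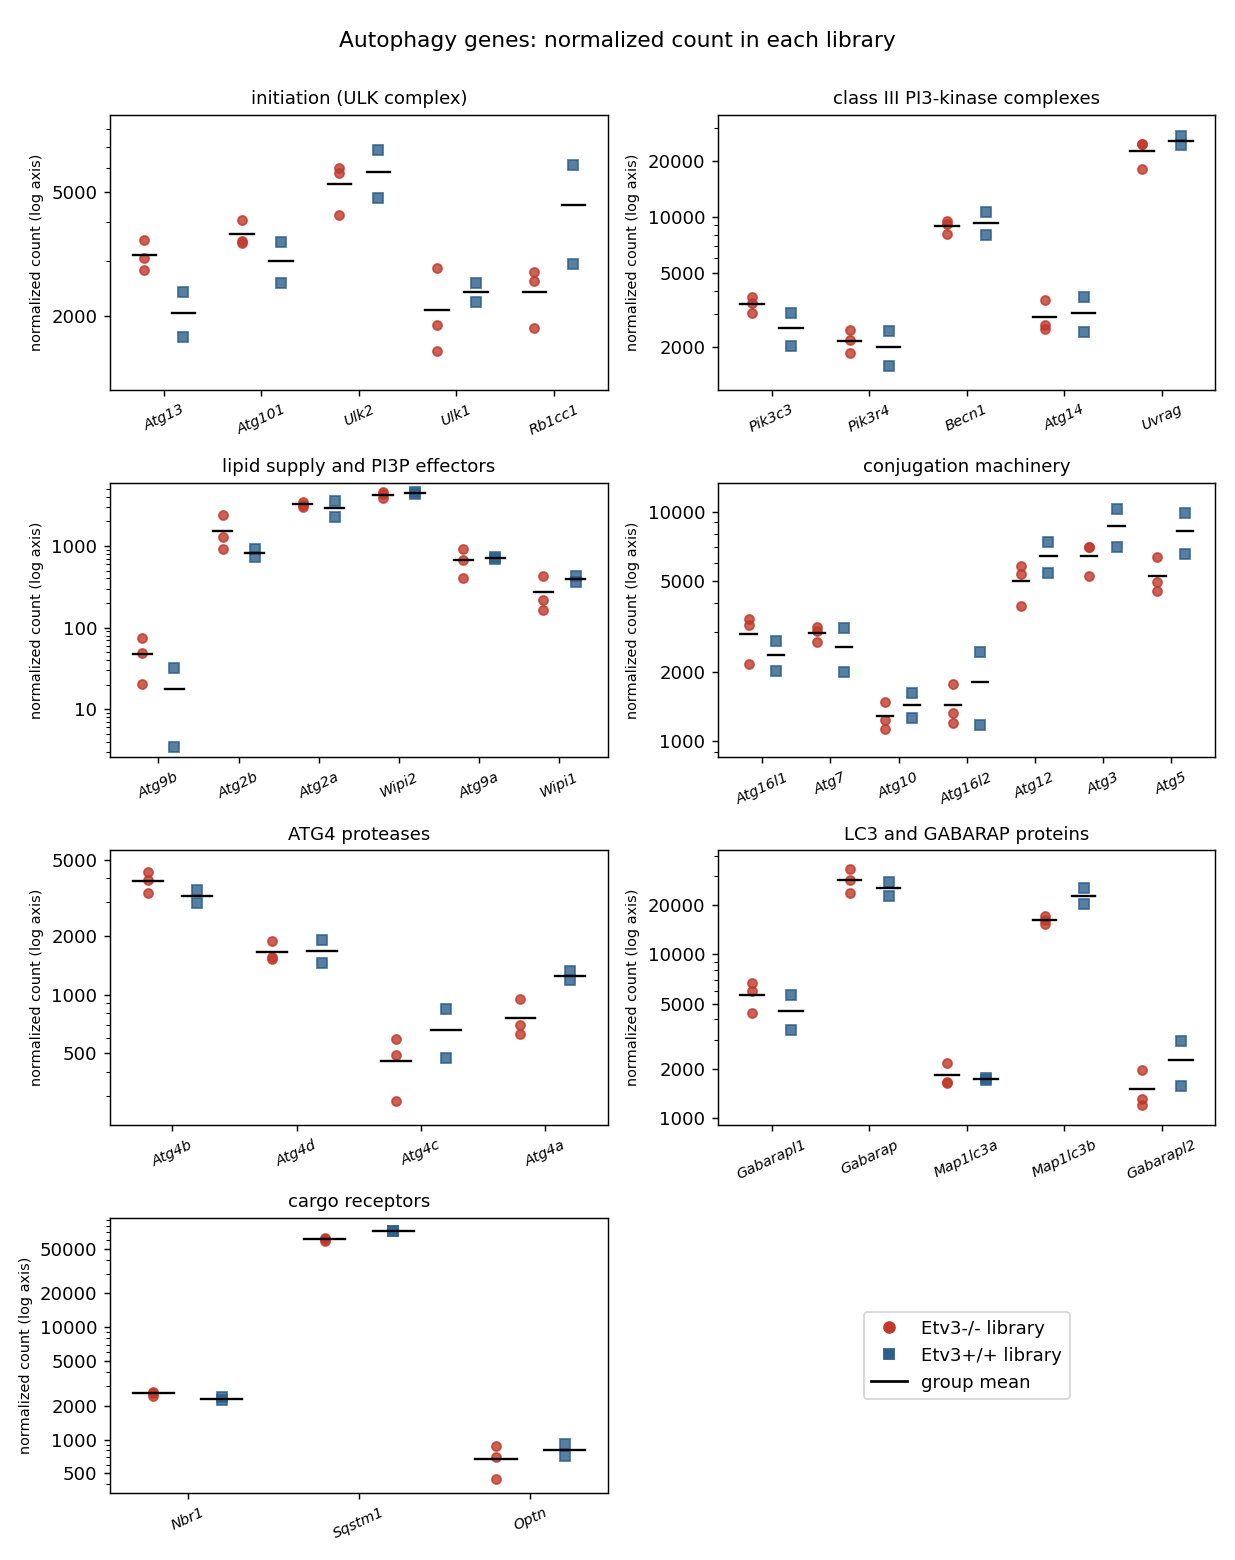
Normalized count of each autophagy gene in each library, on a log axis, by role in the pathway, with 3 Etv3-/- libraries (red circles) left of 2 Etv3+/+ libraries (blue squares) and group means as bars. For 9 of the 35 genes the 2 genotypes do not overlap, among them Sqstm1, Map1lc3b, Atg5 and Atg13.

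In the initiation complex, members pointed in opposite directions and 0 of 5 passed. Atg13 encodes the adaptor that ties the ULK kinases to the rest of the complex (chromosome 2, 91674618 to 91710576, GRCm38). It had 3079, 2799 and 3518 normalized counts in Etv3-/- libraries, against 1702 and 2387 in Etv3+/+ libraries. Each Etv3-/- value was above both Etv3+/+ values, with a log2 fold change of 0.63 (interval 0.06 to 1.20, limma adjusted p = 0.241). Rb1cc1 encodes FIP200, the scaffold of the same complex (chromosome 1, 6206197 to 6276648). It stood at 2579, 2767 and 1824 in Etv3-/- and at 2940 and 6132 in Etv3+/+ libraries. The genotypes did not overlap, yet the gap between the 2 Etv3+/+ libraries, 1.06 on the log2 scale, exceeded the fold change of -0.85 (interval -1.66 to -0.04, adjusted p = 0.259). Ulk1, the kinase itself, had 1537, 1859 and 2856 normalized counts in Etv3-/- and 2542 and 2206 in Etv3+/+ libraries. The 2 Etv3+/+ values fell inside the spread of the Etv3-/- values (log2 fold change -0.23, interval -0.94 to 0.47, adjusted p = 0.729). The other two, Ulk2 and Atg101, which encodes a partner of ATG13, overlapped between genotypes with log2 fold changes of -0.12 and 0.30.

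Among the 5 genes of the class III PI3-kinase complexes, which make the lipid PI3P on the forming membrane, log2 fold changes ran from -0.21 to 0.45 and 0 passed. Becn1, encoding the Beclin 1 subunit, was at 8044, 9144 and 9457 normalized counts in Etv3-/- and at 10628 and 7957 in Etv3+/+ libraries. Its values overlapped, with a log2 fold change of -0.05 and an interval of -0.55 to 0.44 that lies inside 2-fold both ways (adjusted p = 0.922). Pik3c3, the catalytic subunit VPS34, had 3712, 3061 and 3448 in Etv3-/- and 3050 and 2038 in Etv3+/+ libraries. The lowest Etv3-/- value stood just above the higher Etv3+/+ value, and the interval of its log2 fold change of 0.45 was -0.13 to 1.02 (adjusted p = 0.395). Pik3r4, which encodes the regulatory subunit VPS15, and Atg14, whose product directs the complex to autophagy, had log2 fold changes of 0.13 and -0.06. Uvrag, which encodes the alternative partner of Beclin 1 in endosomal traffic, was at -0.21 on that scale, and all 3 overlapped between genotypes.

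Genes of lipid supply and of PI3P binding had log2 fold changes from -0.66 to 1.85, with 0 of 6 past the threshold. Atg2b, one of a pair of ATG2 lipid transfer proteins, had 2418, 1285 and 921 normalized counts in Etv3-/- and 919 and 735 in Etv3+/+ libraries. The groups did not overlap, but Etv3-/- replicate 3 and Etv3+/+ replicate 1 almost met, and Etv3-/- replicate 1 alone stood far above the rest. Its log2 fold change was 0.79 (interval -0.19 to 1.76, adjusted p = 0.374). The paralog Atg2a was at 0.19. Wipi1, one of a family of PI3P-binding proteins, had 435, 219 and 163 in Etv3-/- and 360 and 432 in Etv3+/+ libraries, with an overlap through Etv3-/- replicate 1 (log2 fold change -0.66, interval -1.88 to 0.56, adjusted p = 0.545). Wipi2, whose product recruits the ATG16L1 complex, had overlapping values of 3872, 4362 and 4548 in Etv3-/- and 4351 and 4602 in Etv3+/+ libraries (log2 fold change -0.07, interval -0.53 to 0.39). Atg9a, the membrane scramblase gene, overlapped as well, with a log2 fold change of -0.16.

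The conjugation machinery joins ATG12 to ATG5 and LC3 or GABARAP to lipid. Of its 7 genes 0 passed, 5 had log2 fold changes below 0, and 1 had genotypes that did not overlap. That gene was Atg5 (chromosome 10, 44268358 to 44364291), with 4486, 6352 and 4939 normalized counts in Etv3-/- and 6521 and 9880 in Etv3+/+ libraries. The highest Etv3-/- value lay just below the lower Etv3+/+ value, and the log2 fold change was -0.63 (interval -1.23 to -0.02, adjusted p = 0.262). Atg7, the E1-like enzyme that activates both systems, was at 3005, 2701 and 3152 in Etv3-/- and at 3117 and 1997 in Etv3+/+ libraries. Its values overlapped (log2 fold change 0.24, interval -0.36 to 0.84, adjusted p = 0.665). The E2-like enzyme genes Atg3 and Atg10 were at -0.42 and -0.17 and Atg12 at -0.36 on the log2 scale, with Etv3+/+ replicate 2 the highest library for all 3. The scaffold genes Atg16l1 and Atg16l2 were at 0.28 and -0.26.

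Among the ATG4 proteases, which trim LC3 and GABARAP precursors and release them from lipid, 0 of 4 passed. Atg4a had 946, 628 and 693 normalized counts in Etv3-/- and 1185 and 1320 in Etv3+/+ libraries. All 3 Etv3-/- values were below both Etv3+/+ values (log2 fold change -0.75, interval -1.46 to -0.03, adjusted p = 0.259). These values are uncertain: 96.0% of its longest transcript matches the copy Atg4a-ps at 95% identity or more, and reads may be split between them. Atg4a-ps was at 59.2, 42.1 and 41.2 in Etv3-/- and 55.9 and 30.8 in Etv3+/+ libraries. Atg4c was at 486, 589 and 281 in Etv3-/- and 842 and 470 in Etv3+/+ libraries, which overlapped (log2 fold change -0.54, interval -1.61 to 0.53, adjusted p = 0.572). Atg4b, the family's main protease in cells, and Atg4d had log2 fold changes of 0.25 and -0.01.

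**Figure D3:**
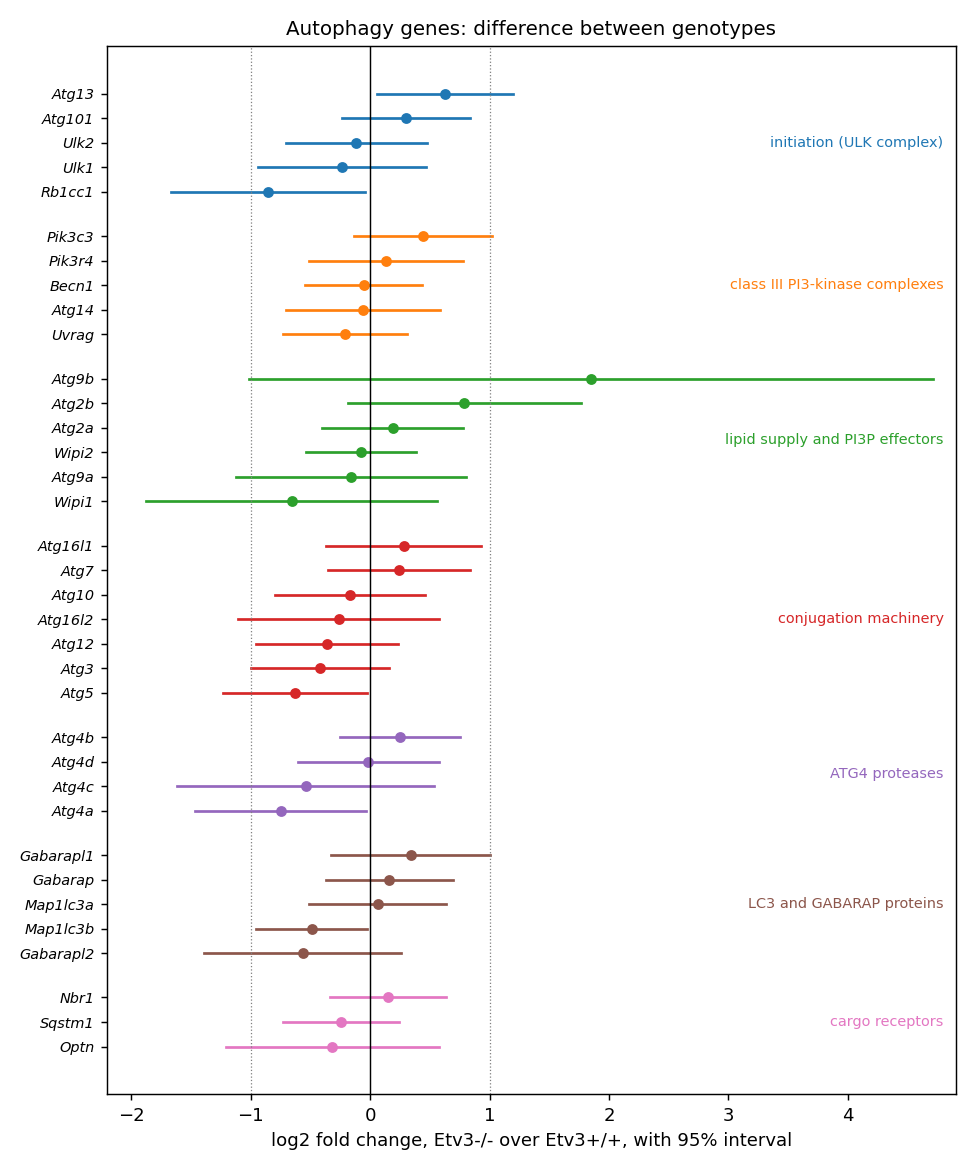
Log2 fold change of each autophagy gene, Etv3-/- over Etv3+/+ (points), with its 95% interval from limma (lines), grouped by role from initiation (top) to cargo receptors (bottom). Dotted lines mark a 2-fold difference either way. Most intervals cross 0, and the intervals of Atg13, Rb1cc1, Atg5, Atg4a and Map1lc3b do not, before adjustment over all tested genes.

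LC3 and GABARAP proteins are the membrane-bound tags of the autophagosome, and 0 of their 5 genes passed. Map1lc3b (chromosome 8, 121590361 to 121598760) had 16165, 15366 and 17089 normalized counts in Etv3-/- and 25420 and 20258 in Etv3+/+ libraries. Every Etv3-/- library was below both Etv3+/+ libraries, with means of 16207 ± 862 (SD, n = 3) in Etv3-/- and 22839 ± 3650 (SD, n = 2) in Etv3+/+ cells and a ratio of means of 0.710 (log2 fold change -0.49, interval -0.95 to -0.02, adjusted p = 0.260). Gabarap was at 28546, 23741 and 33263 in Etv3-/- and at 22862 and 27885 in Etv3+/+ libraries. These values overlapped (log2 fold change 0.16, interval -0.37 to 0.69, adjusted p = 0.754). Gabarapl1 had 6639, 4355 and 5979 in Etv3-/- and 5603 and 3457 in Etv3+/+ libraries, with an interval of -0.33 to 1.01 around a log2 fold change of 0.34 (adjusted p = 0.565). Gabarapl2 had 1301, 1974 and 1202 in Etv3-/- and 1569 and 2956 in Etv3+/+ libraries, again overlapping (log2 fold change -0.56, interval -1.39 to 0.26, adjusted p = 0.443). Map1lc3a, the LC3A transcript, was at 2166, 1658 and 1626 in Etv3-/- and at 1701 and 1747 in Etv3+/+ libraries, a log2 fold change of 0.06 (interval -0.51 to 0.64, adjusted p = 0.921).

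As a share of the summed per-length level of these 5 genes, Map1lc3b took 18.8%, 21.1% and 18.3% in Etv3-/- and 30.9% and 23.6% in Etv3+/+ libraries. Gabarap took 62.4%, 61.2% and 66.8% in Etv3-/- and 52.1% and 60.9% in Etv3+/+ libraries. For both genes the shares of the genotypes did not overlap, although for Gabarap the nearest values, 61.2% in Etv3-/- and 60.9% in Etv3+/+ libraries, almost met. Shares are parts of the same sum, so a lower Map1lc3b share by itself raises that of Gabarap. The normalized counts of Gabarap overlapped between genotypes. The ratio of Map1lc3b to Gabarap normalized counts was 0.566, 0.647 and 0.514 in Etv3-/- and 1.11 and 0.726 in Etv3+/+ libraries. These shares and ratios were computed after the gene values had been seen and are given without a test.

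**Figure D4:**
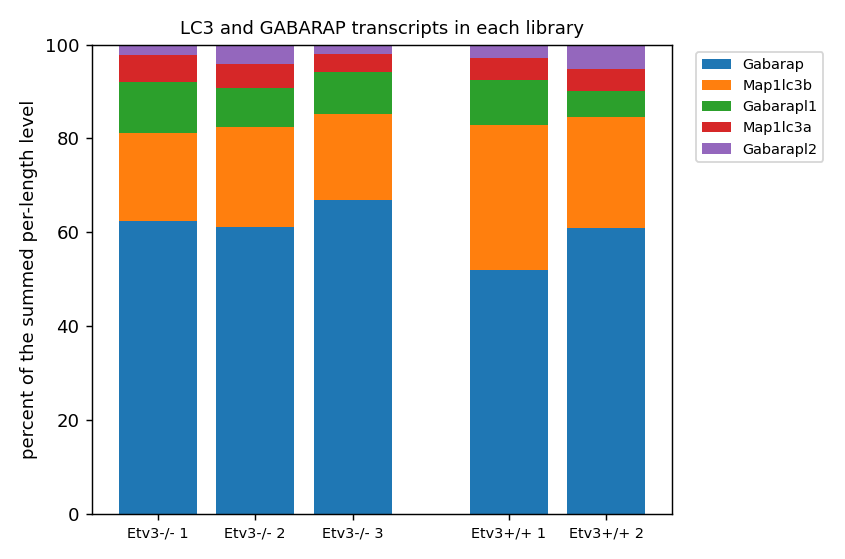
Share of each LC3 and GABARAP transcript in the summed per-length level of the 5 genes (percent, vertical axis) in 3 Etv3-/- libraries (left) and 2 Etv3+/+ libraries (right). Gabarap forms the largest part in every library, and Map1lc3b takes 18.3% to 21.1% in Etv3-/- and 23.6% to 30.9% in Etv3+/+ libraries.

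Cargo receptors link ubiquitinated cargo to LC3 and GABARAP proteins, and 0 of 3 passed. Sqstm1 (chromosome 11, 50199366 to 50210827) had 60557, 58991 and 61572 normalized counts in Etv3-/- and 71845 and 71034 in Etv3+/+ libraries. Both groups were tight and did not overlap, with means of 60373 ± 1300 (SD, n = 3) in Etv3-/- and 71439 ± 573 (SD, n = 2) in Etv3+/+ cells, a ratio of 0.845 (log2 fold change -0.24, interval -0.73 to 0.24, adjusted p = 0.574). The limma interval also draws on the spread of other genes of like level. Nbr1, the transcript of a related receptor, was at 2658, 2603 and 2466 in Etv3-/- and at 2400 and 2238 in Etv3+/+ libraries, also without overlap but in the other direction (log2 fold change 0.15, interval -0.34 to 0.64, adjusted p = 0.747). Optn, encoding the receptor optineurin, overlapped with a log2 fold change of -0.32. Summed over all 35 genes, normalized counts were 214336, 210107 and 222551 in Etv3-/- and 240404 and 237906 in Etv3+/+ libraries, a sum in which Sqstm1 is the largest term.

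Base composition moved with these differences. Etv3-/- replicate 3 and Etv3+/+ replicate 2 had opposite trends with GC content over all genes: the Spearman correlation of a library's log2 deviations with the GC content of the longest transcript was 0.41 for the Etv3-/- library and -0.42 for the Etv3+/+ library across 13609 genes. Among the 35 autophagy genes, whose GC content ran from 39.1% to 63.1%, the values were 0.61 for that Etv3-/- library and -0.47 for that Etv3+/+ library. The log2 fold changes of the members correlated with GC content as well (Spearman 0.49 across 35 genes, 0.29 across 13609), a description across genes of the same 5 libraries. With each library corrected for GC content and length, the log2 fold change of Rb1cc1, the most AT-rich member, was -0.21 and that of Atg4a -0.35. It was -0.42 for Atg5, -0.52 for Map1lc3b, -0.42 for Sqstm1 and 0.51 for Atg13 under the same correction, with 0 of 35 members past the threshold (lowest adjusted p = 0.131). The sign changed for 5 of 35 members: Atg3, Atg10 and Becn1 took positive values, 0.17, 0.28 and 0.19, and Gabarap and Map1lc3a took negative ones, -0.02 and -0.01. Mitochondrial transcripts made up 2.31%, 3.17% and 1.10% of normalized counts in Etv3-/- and 1.98% and 6.64% in Etv3+/+ libraries, and their part was not tested.

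**Figure D5:**
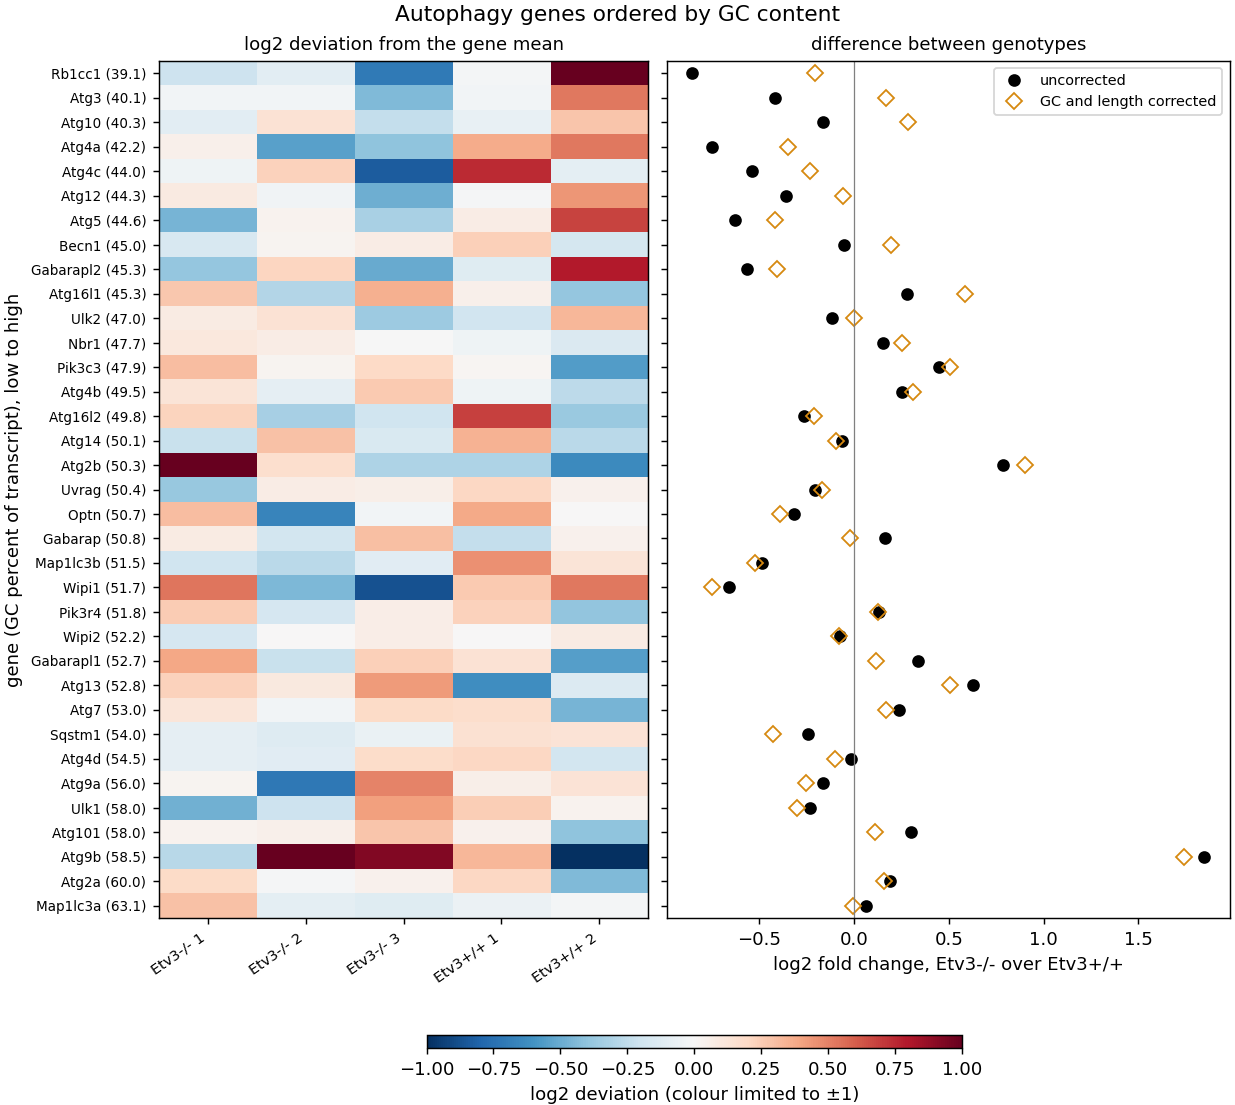
Autophagy genes from low (top) to high GC content (bottom). Left, log2 deviation of each library from the gene's mean over 5 libraries, with 3 Etv3-/- columns before 2 Etv3+/+ columns, and right, the log2 fold change, Etv3-/- over Etv3+/+, before (black circles) and after (open orange diamonds) correction for GC content and length. Genes towards the top tend to be low in Etv3-/- replicate 3 and high in Etv3+/+ replicate 2, and Rb1cc1 goes to -0.21 with the correction, against -0.85 without it.

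Other parts of the pathway were examined as lists, without correction for GC content. Of 25 other core and fusion factors 0 passed (median log2 fold change -0.19), and the most abundant were Rab7 and Sh3glb1. Rab7, the GTPase of late endosomes, was at 19950 to 29943 normalized counts in Etv3-/- and 25555 to 29443 in Etv3+/+ libraries, and Sh3glb1, a membrane-bending partner of the UVRAG complex, at 22713 to 29365 in Etv3-/- and 27619 to 35470 in Etv3+/+ libraries. Of 36 genes of mTORC1, AMPK and TFEB, the nutrient and energy switches of autophagy, 0 passed (median -0.23, range -2.10 to 0.67). At an unadjusted limma p under 0.05 there were 9, or 25% against 18.0% of all tested genes. Over all tested genes 1372 were lower and 1108 higher in Etv3-/- cells at that p. Of the 9 in this list 8 were lower and 1 was higher. The higher one, named after its values were seen, was Rptor, which encodes the mTORC1 subunit Raptor, with 12795, 14840 and 15394 normalized counts in Etv3-/- and 10622 and 8189 in Etv3+/+ libraries and no overlap (log2 fold change 0.62, limma adjusted p = 0.195). The 2 most abundant genes of that list were Sesn2 and Rragc. Rragc, a Rag GTPase that brings mTORC1 to the lysosome, had 11363, 12177 and 10106 in Etv3-/- and 16376 and 17453 in Etv3+/+ libraries. The genotypes did not overlap (log2 fold change -0.60, interval -1.04 to -0.15, limma adjusted p = 0.177), and Rragc is one of the 8 lower genes. Sesn2, a stress-induced inhibitor of mTORC1, was at 15315 to 18023 in Etv3-/- and 11878 to 18657 in Etv3+/+ libraries. Of 19 other cargo receptors and mitophagy factors 0 passed (median -0.17). There Tax1bp1, a receptor related to those above, had 26711, 29343 and 20832 in Etv3-/- and 35490 and 38879 in Etv3+/+ libraries without overlap (log2 fold change -0.55, adjusted p = 0.257), and Fkbp8, a mitophagy receptor, overlapped at 14050 to 14985 in Etv3-/- and 12328 to 17264 in Etv3+/+ libraries.

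Promoter windows from RefSeq (GRCm38.p6, 250 bases before to 50 after a gene's start) were found for 29 of the 35 genes, 32 windows in all. Both strands were searched for the ETS-type site CCGGAAG, because Etv3 is an ETS factor, and for the E-box CACGTG that TFEB sites contain. The ETS-type letters occurred in 3 of 32 member windows, or 9.38%, against 8.86% of all 32851 windows and 16.8% of those of tested genes. E-box letters occurred in 4 of 32, or 12.5%, those of Atg3, Atg5, Atg7 and Atg14, against 7.15% and 9.74%. The windows of Atg7 and Atg14 follow the RefSeq start and lie inside the gene span in GENCODE. Atg7 begins there at 114643097 on the plus strand, and its window covers 114670846 to 114671145. Atg14 begins at 47570649 on the minus strand, and its window covers 47568385 to 47568684. The longer form TCACGTGA, which contains the E-box, was in 1 of 32 windows, that of Atg3, against 0.974% of all windows and 1.75% of those of tested genes. A match describes the letters only, and no binding was measured. The windows with an ETS-type match are those of Atg101 (chr15:101284051-101284350, plus strand), Atg3 (chr16:45158579-45158878, plus strand) and Gabarapl2 (chr8:111940453-111940752, plus strand), shown 5′ to 3′ with ETS-type and E-box letters in capitals.
Atg101: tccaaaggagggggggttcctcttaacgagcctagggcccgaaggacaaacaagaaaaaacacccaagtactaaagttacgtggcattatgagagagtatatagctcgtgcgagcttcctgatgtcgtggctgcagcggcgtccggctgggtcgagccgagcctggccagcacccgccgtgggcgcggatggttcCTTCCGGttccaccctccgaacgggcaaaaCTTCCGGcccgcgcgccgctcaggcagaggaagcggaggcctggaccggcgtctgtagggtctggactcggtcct
Atg3: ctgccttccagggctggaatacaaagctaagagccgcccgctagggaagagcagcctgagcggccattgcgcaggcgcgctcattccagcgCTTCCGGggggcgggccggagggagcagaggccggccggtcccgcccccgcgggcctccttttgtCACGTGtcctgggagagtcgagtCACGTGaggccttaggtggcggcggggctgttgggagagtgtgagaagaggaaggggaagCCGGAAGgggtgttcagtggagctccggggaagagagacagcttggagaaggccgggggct
Gabarapl2: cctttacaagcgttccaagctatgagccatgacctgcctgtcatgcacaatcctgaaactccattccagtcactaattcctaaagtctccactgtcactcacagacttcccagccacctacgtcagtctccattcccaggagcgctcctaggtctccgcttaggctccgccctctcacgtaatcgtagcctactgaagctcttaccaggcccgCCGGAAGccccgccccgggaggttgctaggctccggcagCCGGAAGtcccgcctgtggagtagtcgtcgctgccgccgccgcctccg
None of these 3 genes passed the threshold, and their genotypes overlapped: log2 fold changes were 0.30 for Atg101, -0.42 for Atg3 and -0.56 for Gabarapl2 (limma adjusted p = 0.527, 0.423 and 0.443).

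Counting of some members is uncertain from the annotation. In GENCODE M21, 19 of the 35 genes overlap another annotated gene, 16 of them one on the opposite strand, and for 9 that neighbour codes for protein, such as Mrnip for Sqstm1, Zcchc14 for Map1lc3b and Cntd1 for Becn1. These overlaps are of whole gene spans, introns included. If the counting ignored strand, pairs whose exons overlap share reads that cannot be told apart. Not every pair need do so: for Atg16l2, Atg4b and Atg2b, 0% of the longest transcript matched another gene at 95% identity or more. Only the longest transcript of each gene was searched, so other isoforms may still overlap. Part of Gabarapl2 (20.9% of its longest transcript) also matches the processed pseudogene Gm5829 at 95% identity or more. By the same measure, matches to other genes covered 46.3% of Atg9a, 32.1% of Becn1 and 23.7% of Atg4d. They covered 21.8% of Sqstm1, 20.8% of Gabarapl1 and 13.8% of Map1lc3b. For Becn1, Atg4d and Sqstm1 the whole of this share matched Cntd1, Kri1 and Mrnip, their coding neighbours on the opposite strand, so these pairs share exon sequence.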

How the data were processed

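Dendritic cells sorted from marrow cultures were profiled by RNA-seq in 3 Etv3-/- and 2 Etv3+/+ low-input SMART-Seq libraries, per the labels' protocols. The authors deposited normalized counts, a signal that is, read counts per gene scaled by 1 factor per library. The submitters' processing notes name Trimmomatic 0.36, STAR 2.7.3a, featureCounts, Subread 1.6.3, DESeq2 1.26.0 and mm10. The use of each tool, the annotation, the strand setting and any filters were not given in the sources used here. In each library 100% of values were within 0.1 of whole multiples of one step, which gave whole reads for edgeR and DESeq2. Intervals cover the spread between libraries, and PCR copies are not separate molecules.

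Genes with 10 or more normalized counts in at least 2 libraries were tested with limma 3.58.1 (lmFit, eBayes with trend; R 4.3.3) on log2 (normalized count + 1), two-sided, with all 5 libraries and genotype as the single term. With 2 against 3 libraries an exact permutation test cannot give p below 0.1. Refits, 21 in all, changed the pseudocount, filter, scaling, limma settings, tool (edgeR 4.0.16, DESeq2 1.42.0), design or libraries, or corrected each library for GC content and summed exon length by local regression (span 0.3). Positions, lengths and GC content came from GENCODE M21, on the assembly of mm10, and copies from BLAST 2.17.0 (95% identity, 50 bases or more). The procedure was also run on simulated counts with the same spread setting for every gene and no GC trend. That run does not cover the GC trends of these libraries. Values in every library are given for the 10 members of largest absolute log2 fold change with a group mean of 50 or more and for 10 members always listed (17 genes in all), and for Wipi2 and Nbr1, chosen after their values were seen. Members, lists and refits were chosen with earlier results of these data known. 1 list of related genes is not reported here. Figures were drawn with matplotlib 3.10.9.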

Additional observations from a re-analysis of the deposited data

How the results depend on the processing

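Of the autophagy genes, 0 rose and 0 fell in each of the 21 refits, in which 1 to 6 had an unadjusted p under 0.05 and the lowest adjusted p was 0.130, without Etv3+/+ replicate 1. One member, Atg9b, was not tested with a filter of 50. Their median log2 fold change, -0.07, was 0.013 with quantile normalization, -0.010 with edgeR and TMM, and -0.024 with the GC and length correction. Over all tested genes the median, -0.060, was 0.023, 0.0021 and -0.0050 under the same 3 settings, so it shifted in the same direction. Without each library in turn the members' median log2 fold change ranged from -0.13 to 0.019, the ends being Etv3+/+ replicates 2 and 1. Over all genes, 121 rose and 44 fell. limma with trend=FALSE gave 44 rises, DESeq2 gave 644 and 544, the GC and length correction 225 and 106, and a pseudocount of 5 gave 70 falls. Without each library in turn there were 0 to 73 rises and 0 to 7 falls, and without both libraries of strongest GC trend 6 and 1. Without Etv3-/- replicate 1 both were 0, with 1885 genes at an unadjusted p under 0.05. Where an Etv3+/+ library is left out, the lone one is assumed to vary like the others.

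With the replicate block, 151 genes rose and 118 fell, and with the block and the GC and length correction 80 and 34, the members' median then being 0.024. Number 3 occurs in Etv3-/- alone. Deviations of same-numbered libraries correlated at -0.03 and 0.04, so the numbers are not taken to pair them.

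None of the 17 named genes passed in any refit, and 11 kept their sign in all, though sizes moved. Without Etv3+/+ replicate 1 or 2, log2 fold changes were -1.38 and -0.32 for Rb1cc1, -1.02 and -0.11 for Gabarapl2, -0.12 and -0.96 for Atg4c, -0.93 and -0.33 for Atg5, 0.74 and 0.15 for Pik3c3, 0.39 and 0.87 for Atg13, 0.019 and 0.31 for Gabarap, and -0.32 and -0.65 for Map1lc3b. Without Etv3-/- replicate 1 Atg2b was at 0.40, and without Etv3-/- replicate 1 or 3 Ulk1 was at -0.040 and -0.49 and Wipi1 at -1.06 and -0.35. For Sqstm1 and Atg4a no library left out moved the value by over 1.5 times. The GC and length correction moved them more, from -0.24 to -0.42 for Sqstm1 and from -0.75 to -0.35 for Atg4a. Of 357 values 14 took the other sign. For Atg7 these were -0.081 without Etv3+/+ replicate 2 (range without each library in turn -0.081 to 0.56) and -0.13 without both GC-trend libraries. For Becn1 they were 0.039 (quantile, a scaling that moved the median of all tested genes in the same direction, as given above), 0.19 (GC and length), 0.074 (replicate block with GC and length) and, without each library in turn, within a range of -0.26 to 0.16, positive without Etv3-/- replicate 1 or Etv3+/+ replicate 1. For Gabarap they were -0.024 (GC and length) and -0.068 (replicate block with GC and length). For Gabarapl1 they were -0.0083 without Etv3+/+ replicate 2 (range -0.0083 to 0.69) and -0.059 without both GC-trend libraries, where Gabarapl2 was at 0.030. For Map1lc3a they were -0.0052 (GC and length) and -0.070 (without Etv3-/- replicate 1, range -0.070 to 0.14). The cause of these changes was not tested.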
